A study of Mus musculus with 4 samples.

Results

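Cycling basal keratinocytes were examined by single-cell RNA sequencing in the back skin epidermis of 4 females aged 19 days. Both control mice carried floxed CerS4 alleles without Cre (CerS4fl/flK14Cre-), and both CerS4epi-/- mice carried the same floxed alleles with Cre (CerS4fl/flK14Cre+). The floxed alleles were made in C57BL/6N mice, which were then crossed to K14-Cre mice. CerS4 is a ceramide synthase, and the keratin-14 promoter drives Cre in basal keratinocytes of the whole epidermis and its follicles, so the deletion is not specific to one compartment. Each mouse has 1 count matrix, called its library here. It was made on BD Rhapsody, a microwell platform that tags the 3' ends of transcripts with a molecule barcode (UMI). In the paper, cells were labelled with a multiplexing kit before loading and assigned by sample tag. A library here is therefore not known to be a separate cartridge. Libraries held 42619084, 48497481, 53106317 and 39231945 counts in control 1, control 2, CerS4epi-/- 1 and CerS4epi-/- 2, and values given for 4 mice follow that order throughout.

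A cell was called cycling when its counts of Mki67, Top2a, Cdk1, Birc5, Ube2c and Ccna2 added up to at least 4, with at least 10 counts of Krt5 plus Krt14 and none of Cd3e and Cd3g. The cells were thus chosen by measured values of these 6 genes and of the gate genes. The rule took 1089 cells, which were 6.09% of the 17886 cells that passed the Krt5 and Krt14 gate and 3.19% of the 34150 cells kept. They came as 302, 303, 287 and 197 cells from the 4 mice. The same gate held 15155 cells with no count of any of the 6 genes, called noncycling here, and 1642 cells with 1 to 3 counts, which were placed in neither group.

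Basal keratinocytes sit on the basement membrane, where they either divide or leave the cell cycle and move up as they differentiate. In dividing cells, E2F factors turn on the genes of DNA replication as S phase begins. Later, the MuvB complex with B-Myb and FoxM1 turns on the genes of G2 and mitosis, and it reaches many of them through a short promoter element called CHR. Mki67 encodes the Ki-67 protein that coats mitotic chromosomes, Top2a untangles DNA, Cdk1 with cyclin A (Ccna2) drives entry into mitosis, Birc5 (survivin) belongs to the chromosomal passenger complex, and Ube2c hands ubiquitin to the complex that ends mitosis. The rule therefore favours cells late in the cycle, and early S phase cells with few of these transcripts can stay outside it.

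The promoters of 3 of the 6 genes are shown for their TTTGAA letters, and those of a pair of replication genes for an E2F site. Each is the 250 bases before the start site in the RefSeq promoter table (GRCm38.p6), which was matched to GRCm39 to give the coordinates. Capitals mark TTTGAA (the CHR letters) and CCAAT (bound by NF-Y) on either strand in Cdk1, Top2a and Ube2c. In Mcm6 and Mcm5, which encode subunits of the replicative helicase, they mark TTTGGCGC alone, an E2F site. Mcm6 and Mcm5 also hold CCAAT, left there in lower case. Cdk1 lies at chr10:69188743-69188992 on the minus strand, Top2a at chr11:98915016-98915265 on the minus strand and Ube2c at chr2:164611599-164611848 on the plus strand. Mcm6 lies at chr1:128287443-128287692 on the minus strand and Mcm5 at chr8:75835887-75836136 on the plus strand.
Cdk1: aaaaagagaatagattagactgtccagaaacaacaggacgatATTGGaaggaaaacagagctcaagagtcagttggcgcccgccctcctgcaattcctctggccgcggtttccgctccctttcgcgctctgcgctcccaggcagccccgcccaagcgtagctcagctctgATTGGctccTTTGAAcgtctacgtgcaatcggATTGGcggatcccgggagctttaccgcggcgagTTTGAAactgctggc
Top2a: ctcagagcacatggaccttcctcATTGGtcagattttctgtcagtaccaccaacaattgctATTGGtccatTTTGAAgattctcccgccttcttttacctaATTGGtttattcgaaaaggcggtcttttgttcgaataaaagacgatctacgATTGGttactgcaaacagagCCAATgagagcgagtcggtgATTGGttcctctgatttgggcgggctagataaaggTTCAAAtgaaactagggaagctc
Ube2c: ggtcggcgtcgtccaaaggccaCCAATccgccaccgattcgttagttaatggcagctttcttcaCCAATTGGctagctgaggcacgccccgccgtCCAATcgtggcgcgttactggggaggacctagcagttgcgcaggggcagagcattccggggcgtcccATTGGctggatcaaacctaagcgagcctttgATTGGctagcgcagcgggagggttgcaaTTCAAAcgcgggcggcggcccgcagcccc
Mcm6: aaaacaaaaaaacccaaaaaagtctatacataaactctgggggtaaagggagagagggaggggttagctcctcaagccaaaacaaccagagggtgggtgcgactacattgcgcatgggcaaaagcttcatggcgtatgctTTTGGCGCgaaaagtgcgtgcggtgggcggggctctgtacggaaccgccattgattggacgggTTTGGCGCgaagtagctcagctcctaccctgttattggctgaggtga
Mcm5: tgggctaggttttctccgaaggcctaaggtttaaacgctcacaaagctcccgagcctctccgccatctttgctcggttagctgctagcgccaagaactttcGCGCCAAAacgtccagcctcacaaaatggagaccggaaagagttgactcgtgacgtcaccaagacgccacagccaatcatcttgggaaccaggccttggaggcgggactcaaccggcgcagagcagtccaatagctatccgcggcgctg

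Cdk1 held TTTGAA with its first base at -71 and at -15 from the start site, Top2a at -179 and -23, and Ube2c at -29. The E2F site began at -110 and -47 in Mcm6 and at -149 in Mcm5. In windows of 300 bases (250 before the start and 50 after it), searched on both strands, TTTGAA was found in 63.6% of 55 promoters of a G2 and mitosis list, 7.5% of 40 promoters of an S phase list and 17.9% of all 32851 promoters. CCAAT was found in 80% and 52.5% of the promoters of those lists and in 37.4% of all promoters. TTTCCCGC or TTTGGCGC was found in 5.45% of the G2 and mitosis promoters, 30% of the S phase promoters and 1.56% of all. The table matched 50 of 61 G2 and mitosis genes, 35 of 47 S phase genes and 5 of the 6 rule genes, among which 4 held TTTGAA. These letter matches describe the windows only.

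The 6 genes were found together in most of the cells. Top2a was counted in 91.2% of the 1089 cycling cells, Mki67 in 87.1%, Cdk1 in 83.8%, Birc5 in 83.0%, Ccna2 in 82.6% and Ube2c in 73.4%. All 6 were counted in 583 cells. The sum of the 6 had a median of 20 and a maximum of 104, and 668 cells (61.3%) had a sum of at least 15. These values come from the genes that chose the cells, so they check nothing. Gated cells numbered 124, 89, 55 and 45 at sums of 3, 4, 5 and 6, with no gap at the threshold. Cells with a sum of 4, just inside it, numbered 22, 28, 23 and 16 and carried 9312, 8450, 5607 and 7921 CPM of the G2 and mitosis list in the 4 mice, where CPM are counts scaled to a common total of all counts in the cells summed. Cells with a sum of 3, just outside it, numbered 33, 26, 30 and 35 and carried 6487, 6405, 6328 and 6821 CPM. Outside the gate, 5 of 4192, 6 of 4520, 7 of 4034 and 9 of 3518 cells reached a sum of 4 (0.119%, 0.133%, 0.174% and 0.256%). Cells with at least 3 counts of Cd3e plus Cd3g reached it in 1 of 101, 1 of 66, 0 of 136 and 2 of 138 cases (0.990%, 1.52%, 0% and 1.45%). Whether such cells were themselves cycling or held free RNA was not tested. Among late granular cells with under 10 counts of Krt5 plus Krt14, which should lack these transcripts and had medians of 9880 to 11793 counts, 0 of 1012, 1259, 949 and 774 cells reached 4, with exact 95% upper limits of 0.364%, 0.293%, 0.388% and 0.476%.

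Markers of the basal layer that the rule did not use were present in the cycling cells. Krt5 (median 50 counts) and Krt14 (median 36 counts) were required by the gate and check nothing. Krt15, a basal keratin, stood at 7467, 7861, 5727 and 5986 CPM in the cycling cells. The basal transcription factor Trp63 stood at 356, 318, 281 and 295 CPM. Cycling cells were deeper than noncycling cells, with medians of 5128, 4791, 6088 and 5224 counts against 2822, 2731, 3390 and 3034. The rule asks for a minimum count in cycling cells and for none in noncycling cells, which itself favours deeper cells among the cycling ones. How much of the gap came from the rule was not tested. After each cell was thinned to 1200 counts, a median of 775, 774, 759 and 756 genes was left in cycling cells and 732, 728, 708 and 708 in noncycling cells. Their mitochondrial share was lower, at 8.57%, 8.48%, 9.88% and 9.71% against 9.68%, 9.56%, 10.97% and 10.8%.

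Transcripts of other cell types were scarce in the cycling cells. The summed level of the 13 measured genes of a T cell list was 10.9, 8.48, 8.42 and 12.3 CPM, most of it Lck, while Cd3e and Cd3g were at 0 by the rule and Cd2, Nkg7, Trdv4 and Gzmb were at 0 without it. The 8 melanocyte genes summed to 7.28, 9.13, 4.73 and 9.65 CPM, with Tyrp1 and Sox10 at 0. The 9 fibroblast genes summed to 36.4, 26.8, 51.5 and 39.5 CPM, led by Col6a1, with Col3a1, Pdgfra and Lum at 0. Langerhans cell genes summed to 277, 151, 217 and 283 CPM, of which Epcam, also made by keratinocytes, was the most abundant. Endothelial and blood genes summed to 10.5 to 22.2 CPM. A count of any of 7 marker genes of other cell types was present in 18, 6, 14 and 6 cycling cells (5.96%, 1.98%, 4.88% and 3.05%).

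A few cycling cells carried large amounts of late granular transcripts. At least 10 counts of Lor (loricrin), Flg2 and 5 Lce1 genes, all made in the outermost living layers, were found in 4, 3, 3 and 6 cycling cells. Of these, 3 cells of control 1 and 4 of CerS4epi-/- 2 had at least 400 such counts and held 90.7% and 96.3% of all late granular counts in the cycling cells of those mice. Lor stood at 926, 129, 125 and 2468 CPM in the 4 mice. No doublet caller was run, so cell pairs may be among them. The genotype comparisons are therefore given with and without the 16 cells. No kept barcode was shared between the control mice or between the CerS4epi-/- mice, while each pair of a control and a CerS4epi-/- library shared 64 to 102 of them (328 in all). Of the 1089 cycling cells, 22 had a barcode kept in another library, none of them cycling there. The sources used here do not say which mice shared a cartridge. Barcode sharing divides the libraries by genotype, so loading and genotype cannot be told apart.

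Cers4 itself was barely counted in cycling cells, with 2, 1, 0 and 2 counts in all. In noncycling cells it stood at 52.1, 9.03, 6.92 and 7.04 CPM, high in control 1 alone, and the quasi-likelihood test of edgeR, adjusted by Benjamini-Hochberg, gave a log2 fold change of -2.06 (SE 0.734, adjusted p = 0.132). Where the counted 3' ends lie relative to the floxed part is not given in the sources used here, so these counts do not check the genotype labels.

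The first question between genotypes was how many basal cells were cycling. Cycling cells made up 7.04% of gated cells in control 1 (302 of 4288, exact 95% interval 6.30 to 7.85%) and 6.64% in control 2 (303 of 4566, 5.93 to 7.40%). They made up 5.76% in CerS4epi-/- 1 (287 of 4983, 5.13 to 6.44%) and 4.87% in CerS4epi-/- 2 (197 of 4049, 4.22 to 5.57%). Both CerS4epi-/- mice lay below both control mice. The means were 6.84% ± 0.288 in control and 5.31% ± 0.632 in CerS4epi-/- mice (SD, n = 2 each), a difference of -1.53 percentage points that gave p = 0.33 in a two-sided exact permutation test over mice, the smallest p that 2 against 2 mice allow. Because the CerS4epi-/- cells were deeper, which makes a fixed count easier to reach, every cell was also thinned to 1200 counts. With a sum of at least 2 in thinned cells, cycling cells made up 7.68%, 7.44%, 6.04% and 4.76% of gated cells, and 15, 14, 18 and 21 cells were too shallow to be thinned. Mitochondrial content moved with genotype too, with medians of 9.59%, 9.47%, 10.9% and 10.7% of counts in gated cells. With at most 10% mitochondrial counts, cycling cells made up 8.81%, 8.60%, 7.86% and 6.23% of gated cells. The intervals cover counting error only.

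**Figure D1:**
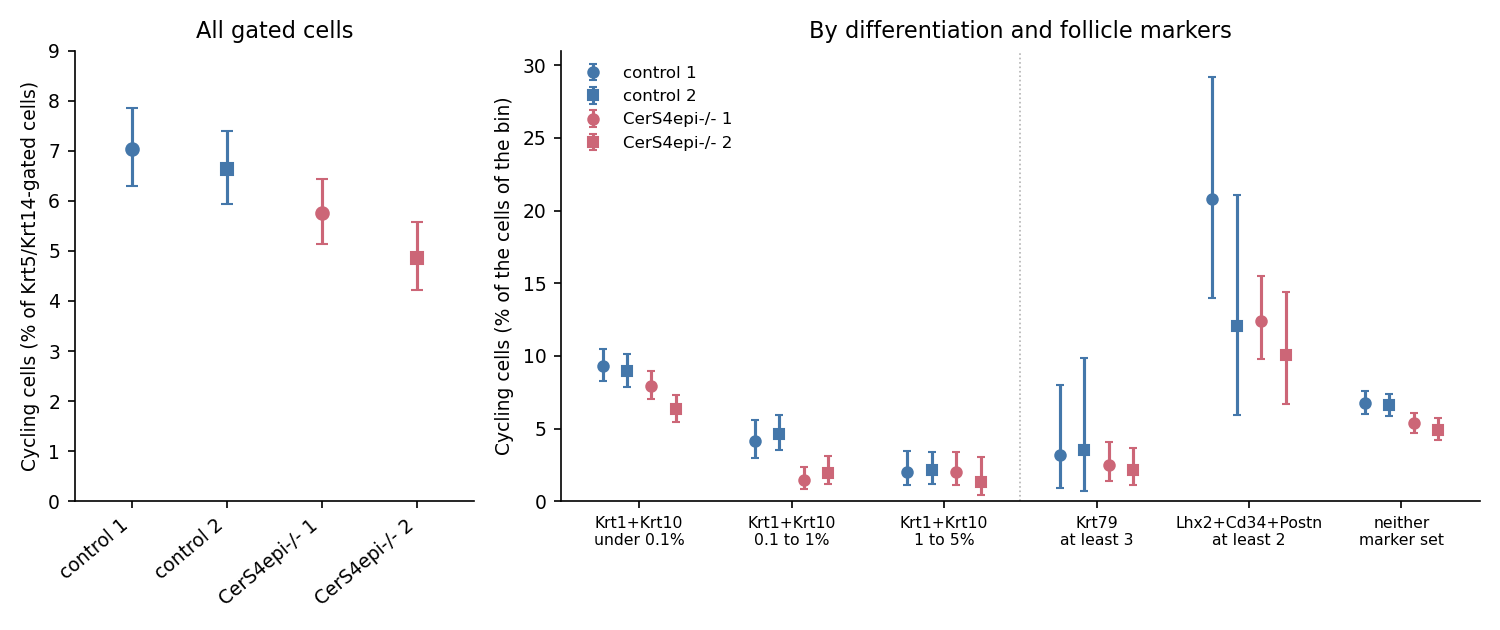
Left, share of Krt5 and Krt14 gated cells that were cycling (percent) in each of the 4 mice. Right, the same share within bins of Krt1 plus Krt10 (percent of a cell's counts) and of follicle markers (counts per cell). Points are mice, circles replicate 1 and squares replicate 2, and bars are exact 95% intervals. The CerS4epi-/- mice lie at 5.76% and 4.87%, below both control mice, and the share is highest where Krt1 plus Krt10 is under 0.1% and, in cells as sequenced, where Lhx2, Cd34 and Postn are counted; the latter did not hold in 2 of 4 mice after thinning to 1200 counts.

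Cycling cells thinned out as differentiation keratins appeared. Krt1 and Krt10 are the first keratins of the suprabasal layers. Where they took under 0.1% of a cell's counts, 9.33%, 8.97%, 7.95% and 6.33% of gated cells were cycling. At 0.1 to 1% the shares were 4.15%, 4.63%, 1.43% and 1.97%, with both CerS4epi-/- mice lower by more than the width of the gap between the control mice. At 1 to 5% they were 2.03%, 2.12%, 2.04% and 1.31%, and none of the 12 cells over 5% was cycling. The share was 4.38-fold higher in the lowest bin than at 1 to 5% (log2 2.13 ± 0.137, SD, n = 4 mice, higher in 4 of 4). The lowest bin held 82.1%, 75.6%, 89.9% and 88.3% of the cycling cells.

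Follicle markers went with different shares of cycling cells. Cells with at least 2 counts of Lhx2, Cd34 and Postn, genes of the bulge and its surroundings, were cycling in 25 of 120, 10 of 83, 68 of 547 and 26 of 258 cases (20.8%, 12.1%, 12.4% and 10.1%). Cells with at least 3 counts of Krt79, a keratin of the infundibulum and upper follicle, were cycling in 3.20%, 3.49%, 2.5% and 2.12%. Cells with neither marker set were cycling in 6.77%, 6.59%, 5.35% and 4.93%. Against that last share, the first was 2.27-fold higher (log2 1.19 ± 0.323, higher in 4 of 4 mice) and the second 0.474-fold as high (log2 -1.08 ± 0.123, lower in 4 of 4 mice). Cells with the bulge markers were deeper, with medians of 3522, 3827, 4807 and 4169 counts against 2919, 2806, 3355 and 2999 in cells with neither set. When cells were thinned to 1200 counts, which leaves few cells with these markers, 5 of 29, 0 of 17, 6 of 123 and 3 of 47 bulge-marker cells had a sum of at least 2 (17.2%, 0% with an exact 95% upper bound of 19.5%, 4.88% and 6.38%). The shares in thinned cells with neither set were 7.62%, 7.48%, 6.29% and 4.93%, so the bulge-marker share was then higher in 2 of 4 mice and lower in control 2 and CerS4epi-/- 1. Thinned Krt79 cells were cycling in 0 of 8, 1 of 16, 0 of 119 and 1 of 132 cases. Cells with the bulge markers made up 8.28%, 3.30%, 23.7% and 13.2% of the cycling cells, and Krt79 cells took up 2.92%, 1.88%, 12.1% and 13.98% of all gated cells. Both marker sets were more frequent in the CerS4epi-/- mice, and the part of this difference in the comparisons of genotypes was not tested, so counts of genes are given also without these cells.

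Transcripts of G2 and mitosis were abundant in the cycling cells. Because the rule chose the cells by genes of this program, the contrast with noncycling cells is a description with no test. Of 61 genes of a G2 and mitosis list that does not hold the 6 rule genes, 60 were at least 2-fold higher in cycling cells in each of the 4 mice, against 5.38% of the 10355 genes detected. The exception, Pttg1 (securin), had a log2 ratio of 0.21 ± 0.13 (SD, n = 4). The median log2 ratio of the list was 6.27, 6.39, 5.98 and 6.39 in the 4 mice. Aurkb, the kinase of the chromosomal passenger complex, stood at 142, 185, 129 and 131 CPM in cycling cells and at most 0.768 CPM in noncycling cells (log2 ratio 8.85 ± 1.04). The microtubule depolymerase Kif2c (8.69 ± 0.83), the spindle protein Hmmr (8.17 ± 0.21) and the kinetochore subunit Nuf2 (7.90 ± 0.75) also had large ratios. At so low a noncycling level the size of Aurkb's ratio depends in part on the prior count added to both states. The order of these genes is therefore not read.

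Replication genes were also higher in cycling cells. The rule chose the cells by genes of G2 and mitosis, so the sizes of the lists' ratios were not compared. Of 47 genes of the S phase list, 39 were at least 2-fold higher in each mouse, against 5.38% of all detected genes. The median log2 ratio was 2.08, 2.15, 2.59 and 2.49. Among the largest ratios were those of Clspn (5.80 ± 0.43), a checkpoint mediator, and Mcm10 (5.56 ± 1.03), which acts at replication origins. The 6 helicase subunits Mcm2 to Mcm7 had log2 ratios from 1.30 (Mcm6) to 2.44 (Mcm5). Mcm5 stood at 118, 117, 161 and 128 CPM in cycling cells against 28.4, 24.8, 23.8 and 19.7 CPM, and Mcm6 at 118, 90.0, 158 and 121 CPM against 56.4, 50.01, 42.7 and 46.5 CPM. Pcna, the sliding clamp, stood at 623, 556, 626 and 542 CPM against 199, 182, 154 and 160 CPM. The helicase genes and Pcna were chosen after their values were seen.

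Within the cycling cells the G2 and mitosis list stood above the S phase list in each range of sums, and by more in the higher ranges. Summed over the list, S phase genes took 6509, 4335, 5205 and 5297 CPM in cells with a sum of 4 to 9 and 2198, 2382, 3172 and 2118 CPM in cells with a sum of 40 or more. The G2 and mitosis list, the program that the sum itself counts, went from 9731, 11002, 6970 and 8501 CPM to 30997, 32349, 26019 and 27744 CPM. At a sum of 0 the lists stood at 977, 914, 783 and 788 CPM and at 2067, 1948, 1920 and 1864 CPM. Cells with a sum of 1 to 3, in neither group, held 2269, 1865, 1772 and 1837 CPM of the S phase list, between the noncycling and the cycling cells in every mouse.

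**Figure D2:**
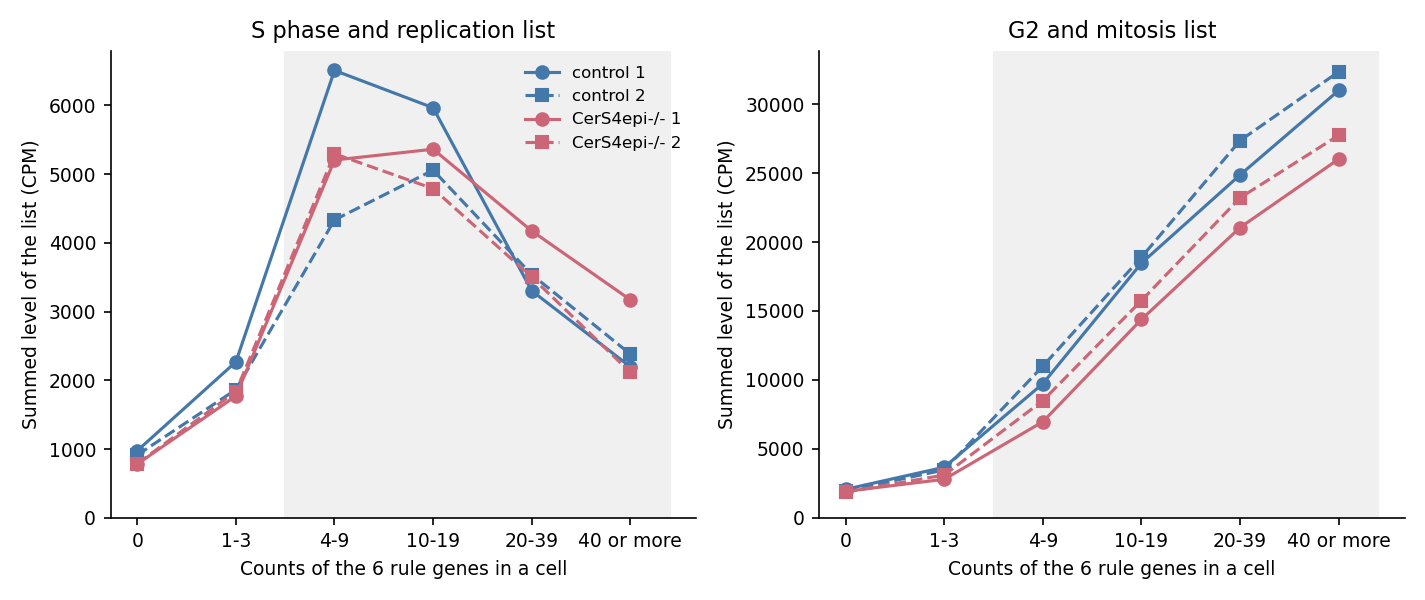
Summed level (CPM) of the S phase list (left) and of the G2 and mitosis list (right) against the counts of the 6 rule genes in a cell, 1 line per mouse (solid replicate 1, dashed replicate 2; blue control, red CerS4epi-/-). The shaded bins are the cycling cells. S phase levels are highest at sums of 4 to 19 and fall to 2118 to 3172 CPM at 40 or more, where G2 and mitosis levels reach 26019 to 32349 CPM.

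Of 16 genes of a list of E2F and Myb-MuvB regulators, 8 were at least 2-fold higher in each mouse, against 5.38% of all detected genes. Foxm1 stood at 92.3, 95.9, 78.9 and 73.7 CPM in cycling cells and at most 0.851 CPM in noncycling cells (log2 ratio 7.51 ± 0.80). The repressors E2f7 (5.57 ± 0.20) and E2f8 (5.0 ± 0.39) and the B-Myb gene Mybl2 (3.79 ± 0.76) followed, with E2f1 at 2.25 ± 0.54. The activity of E2F4, which binds in resting cells, was not measured, and its transcript hardly differed (0.07 ± 0.12). Of 11 detected histone genes 6 were at least 2-fold higher in each mouse, beside the same 5.38%, led by H1f5 (4.87 ± 0.81) and H2ax (3.81 ± 0.36). Most replication-dependent histone transcripts lack a poly(A) tail, so this assay sees few of them.

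Genes that act before S phase looked different. Among 8 genes of G1 cyclins and kinases, 1 was at least 2-fold higher in each mouse (5.38% of all detected genes were), Cdk2 (107, 95.9, 124 and 86.8 CPM against 41.6, 39.6, 37.6 and 39.9 CPM). The D cyclins, which pass growth signals to the cycle, went the other way for Ccnd1, with 98.3, 77.0, 108 and 87.7 CPM in cycling against 197, 165, 141 and 127 CPM in noncycling cells (log2 ratio -0.75 ± 0.35). Ccnd2 stood at 342, 227, 425 and 547 CPM against 752, 588, 556 and 568 CPM. It was lower in cycling cells of both control mice and of CerS4epi-/- 1, and about level in CerS4epi-/- 2.

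Inhibitors of the cycle did not move as one. Of 16 detected members, 4 were at least 2-fold higher in cycling cells of each mouse, and none was 2-fold lower in each mouse, against 5.38% and 1.3% of all detected genes. The INK4 inhibitors Cdkn2c (133, 117, 76.8 and 91.2 CPM against 5.04, 6.58, 8.58 and 8.67 CPM) and Cdkn2d (182, 202, 136 and 146 CPM against 16.3, 16.6, 18.1 and 18.8 CPM) stood out. Cdkn1c had a log2 ratio of 2.73 ± 0.83 and the pocket protein gene Rbl1 one of 2.33 ± 0.21. The p53 target Cdkn1a (p21) stood at 314, 341, 318 and 306 CPM against 378, 405, 527 and 602 CPM, so its 4 cycling values lay within a narrow range while the noncycling values of the CerS4epi-/- mice were higher than those of the control mice, as for 23.6% of the genes tested in noncycling cells. Cdkn2a, a senescence gene, had no count in any cycling cell.

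Outside the lists, the genes with the highest and the lowest ratios were as follows. Depdc1a, a mitotic gene, stood at 80.7, 78.3, 63.1 and 70.2 CPM in cycling cells and at most 0.171 CPM in noncycling cells. The noncycling values rested on 2, 1, 2 and 1 counts. The size of its log2 ratio (8.99 ± 0.378) therefore depends on the prior count added to both states, and only a large excess is read from it. The mitotic kinase gene Pbk (8.91 ± 1.49), the cohesin acetyltransferase gene Esco2 (8.53 ± 0.241) and the spindle pole gene Aspm (8.20 ± 0.369) came next. Arhgef39, Troap, Melk, Mxd3, Pif1, Depdc1b, Kif15, Neil3, Iqgap3, Sapcd2 and Kif18b completed the highest 15. Others of the 15 also had few noncycling counts, as Esco2 (3, 2, 3 and 2) and Arhgef39 (2, 1, 4 and 0). The order among the 15 is therefore not read. Among the lowest, Elovl6, a fatty acid elongase, had 27.9, 21.5, 23.1 and 32.5 CPM in cycling cells and 386, 83.6, 390 and 338 CPM in noncycling cells (log2 ratio -3.28 ± 0.942). The fatty acid binding protein gene Fabp5 had a log2 ratio of -2.04 ± 0.761. The lowest 15 also held 2310046K23Rik, F3, Rarres1, Psapl1, Crabp2, Kprp, Pik3ip1, Skint7, Atp6v1c2, Slc39a8, Sort1 and Klk7. Sebocyte genes summed to 78.3, 93.3, 96.8 and 101 CPM in cycling and 698, 195, 527 and 563 CPM in noncycling cells, and their part in these lower levels was not tested.

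None of 14 genes of adhesion and basement membrane and none of 12 of basal identity was at least 2-fold higher or lower in each mouse. In some alternatives 1 basal identity gene was higher. These were noncycling cells weighted to the depth of the cycling cells, a sum of at least 3 and at most 10% mitochondrial counts. The others left out the 5% deepest cells, the cells with follicle markers, those with late granular counts or CerS4epi-/- 2. Krt15 was slightly lower in cycling cells in each mouse (log2 ratio -0.28 ± 0.02) and the matricellular gene Sparc higher, at 171, 171, 308 and 262 CPM against 94.1, 97.2, 104 and 79.2 CPM. Of 16 early differentiation genes, 4 were at least 2-fold lower in each mouse (1.3% of all detected genes were), and 1, Cdkn1c, was higher. The count of lower genes depended on the cells compared. It was 9 of 16 without the 5% deepest cells (median log2 ratio -1.53, against -1.12 with all cells), 6 with noncycling cells weighted to the depth of the cycling cells (-1.58) and 2 without the cells with follicle markers, beside 139, 237 and 64 of all 10355 genes. Krt1 stood at 413, 532, 580 and 199 CPM against 1281, 1493, 1596 and 1209 CPM, and Notch3 had a log2 ratio of -1.97 ± 0.32. Of 15 follicle genes, 4 were at least 2-fold lower in each mouse, with medians of -0.57, -0.64, -1.85 and -1.67 in the 4 mice. The stress and wound list had medians of -0.67, -0.67, -2.87 and -2.51 over 8 genes. For both lists the deficit was larger in each CerS4epi-/- mouse than in either control mouse. Without the cells with follicle markers the median of the follicle list went from -1.13 ± 0.671 to -0.53 ± 0.250 (SD, n = 4) and 2 of its genes were 2-fold lower in each mouse, and that of the stress list went from -1.71 to -1.39. Late differentiation genes had medians of -0.18, -2.87, -2.81 and 0.49, which follow the cells with late granular counts. Of 25 sphingolipid genes 4 were lower in each mouse, led after Cers4 by Elovl4, which makes very long chain fatty acids (86.2, 66.6, 89.9 and 78.1 CPM against 650, 205, 592 and 560 CPM). Without the cells with follicle markers 0 of the 25 were 2-fold lower in each mouse, and without the 5% deepest cells 2 were.

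**Figure D3:**
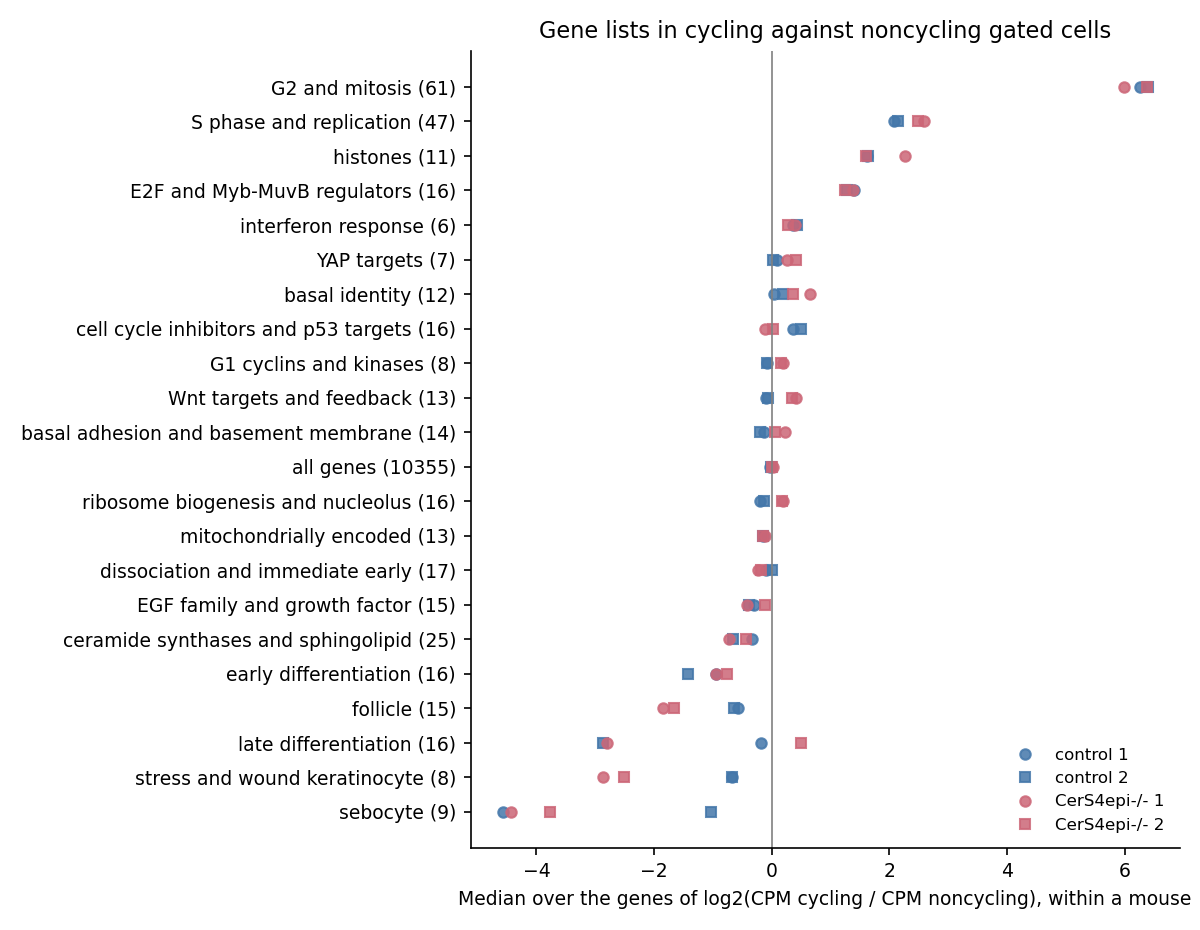
Median log2 ratio of CPM in cycling over noncycling cells within a mouse, for each gene list (number of detected genes in brackets), 1 point per mouse (circles replicate 1, squares replicate 2; blue control, red CerS4epi-/-). G2 and mitosis lies at 5.98 to 6.39 and S phase at 2.08 to 2.59. Follicle and stress lists are lower in the CerS4epi-/- mice, where cells with follicle markers are more frequent, and late differentiation is scattered.

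Between genotypes, 12 genes rose in the cycling cells of CerS4epi-/- mice and none fell. They were 0.121% of 9921 genes tested with edgeR's quasi-likelihood test on counts summed per mouse, at an adjusted p under 0.05 (Benjamini-Hochberg), and 1088 genes had an unadjusted p under 0.05. DESeq2 called 45 genes, 37 higher and 8 lower. The noncycling cells gave 1482 calls among 13420 genes (11%), 963 higher (7.18%) and 519 lower (3.87%), from sums of 11711440, 12618991, 17478951 and 12919118 counts, while the cycling sums were 1647456, 1532830, 1901597 and 1140071. Leaving out either control mouse left 0 calls, and leaving out CerS4epi-/- 1 or 2 gave 502 or 239. Each of these fits has 1 mouse in a genotype, takes its spread from the other genotype alone and assumes that the lone mouse varies like that one. Without the 16 cells with late granular counts 129 genes were called (95 higher, 34 lower), and all 12 were among them. Without the cells with follicle markers 3 were called, Cstdc5, Aqp3 and H19. Of the other 9, Klk10 turned to -0.15 and 8 had log2 fold changes of 1.25 (Sprr1a) to 8.01 (Stra6) with adjusted p from 0.0659 (Car12) to 0.330 (Sprr1a) by the same edgeR test.

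Of the 12 genes, Stra6 and Cstdc5 had the largest fold changes. Stra6, the cell surface receptor for retinol-binding protein, had no count in cycling cells of either control mouse and stood at 18.9 and 28.1 CPM in those of the CerS4epi-/- mice. Taken against the limit of 3 counts over both control mice, it was at least 23.7-fold higher (adjusted p = 0.0168 in edgeR's quasi-likelihood test, as for the other genes here). It rose in noncycling cells too (log2 fold change 7.78, SE 0.559, adjusted p = 0.00256 in the same edgeR test). Aqp3, the channel for water and glycerol, stood at 30.4 and 26.1 CPM in control and 130 and 131 CPM in CerS4epi-/- mice (log2 fold change 2.24, SE 0.158, adjusted p = 0.00167). Car12, a carbonic anhydrase at the cell surface, stood at 48.6 and 41.1 against 137 and 126 CPM (1.59, SE 0.151, adjusted p = 0.00573). Aldh3a1, an aldehyde dehydrogenase, stood at 34.0 and 33.9 against 97.8 and 179 CPM (2.03, SE 0.282, adjusted p = 0.0427). Stra6, Aqp3, Car12 and Aldh3a1 were not among the genes called by the interaction of genotype and state given below. In GRCm39 Stra6 lies at chr9:57970967-58063543, Aqp3 at chr4:41092722-41098183, Car12 at chr9:66615426-66674186 and Aldh3a1 at chr11:61098363-61109247.

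H19, an imprinted noncoding RNA of growing tissues, was higher in cycling than in noncycling cells of each mouse and rose in both states of the CerS4epi-/- mice. It stood at 266, 331, 1466 and 911 CPM in cycling cells and at 37.1, 45.0, 177 and 91.6 CPM in noncycling cells, a log2 ratio between the states of 3.02 ± 0.215 (SD, n = 4). Its genotype difference was 2.03 (SE 0.200, adjusted p = 0.00613) in cycling and 1.77 (adjusted p = 0.019) in noncycling cells, by the same edgeR test. The growth factor binding protein gene Igfbp4 stood at 8.50, 6.52, 53.1 and 102 CPM in cycling cells (log2 fold change 3.33, SE 0.388, adjusted p = 0.0168). Adamts1, a secreted protease, stood at 29.7, 24.1, 72.6 and 82.5 CPM (1.54, SE 0.181, adjusted p = 0.0168), whereas in noncycling cells it was at 95.7, 98.0, 106 and 119 CPM. H19 lies at chr7:142129262-142133957, Igfbp4 at chr11:98932064-98945218 and Adamts1 at chr16:85590579-85600009.

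The other 5 calls had log2 fold changes from 1.06 to 4.81. Cstdc5, a cysteine protease inhibitor of the stefin family, stood at 4.86, 2.61, 129 and 77.2 CPM (log2 fold change 4.81, SE 0.365, adjusted p = 0.00167), and close copies in its cluster make its counting uncertain. Lgals9, galectin-9, stood at 49.2, 68.5, 140 and 195 CPM (1.53, SE 0.212, adjusted p = 0.0427), and the protease gene Klk10 at 30.4, 34.6, 91.5 and 76.3 CPM (1.41, SE 0.172, adjusted p = 0.0193). Krt17, a keratin of the follicle and of wounds whose sequence is close to Krt14, stood at 273, 259, 526 and 555 CPM (1.06, adjusted p = 0.00573). The cornified envelope gene Sprr1a stood at 98.3, 70.5, 230 and 177 CPM (1.31, adjusted p = 0.0427).

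**Figure D4:**
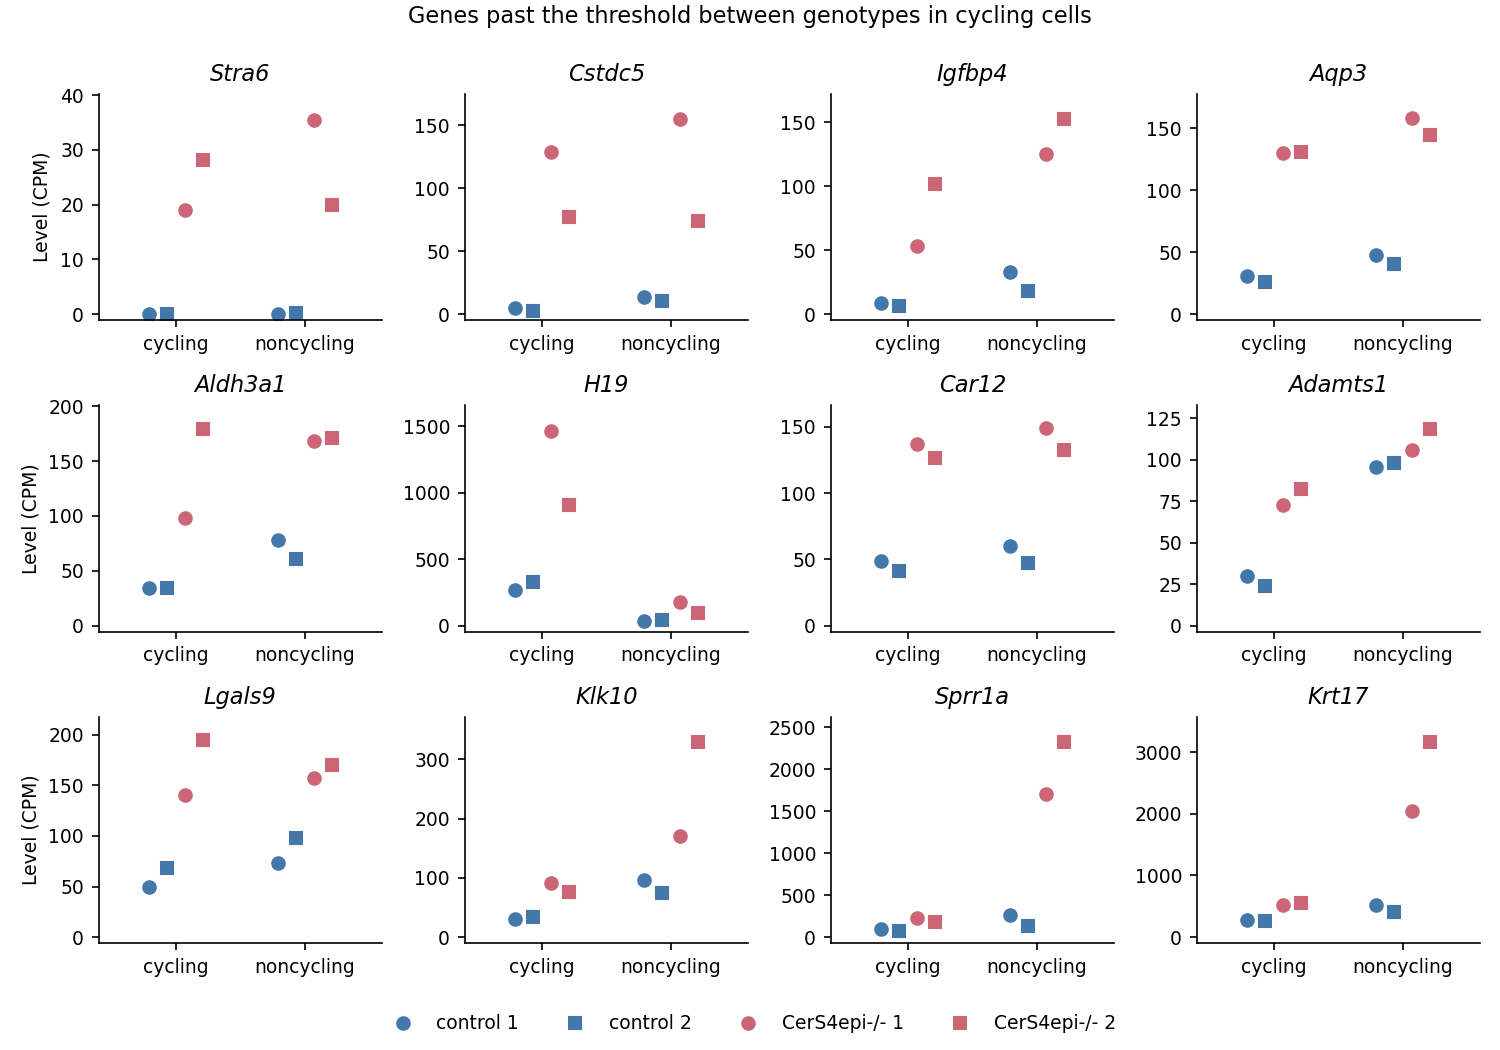
Level (CPM) of the 12 genes called between genotypes in cycling cells, shown in cycling and in noncycling cells of each mouse (circles replicate 1, squares replicate 2; blue control, red CerS4epi-/-). Each axis starts near 0. In cycling cells both CerS4epi-/- points lie above both control points in every panel, as for Aqp3 at 130 and 131 CPM against 30.4 and 26.1 CPM.

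No gene of the cell cycle lists was called by edgeR between genotypes in cycling cells, but G2 and mitosis transcripts were mostly lower in the CerS4epi-/- mice. The rule takes a fixed count, and cycling cells of the CerS4epi-/- mice were deeper, so they could enter at a lower CPM. In cells with a sum of 4 to 9 the rule genes stood at 1421, 1414, 1053 and 1224 CPM. The part of this selection in the lower levels was not tested. At an unadjusted p under 0.05, 23 of 61 G2 and mitosis genes were lower and 1 higher, and 5 of 47 S phase genes were higher and 0 lower, beside 1088 of 9921 genes in either direction, so the S phase count was near that of all genes. DESeq2 called Prc1, Cks2 and Arl6ip1 lower and no S phase gene. Of 61 G2 and mitosis genes, 42 were lower in both CerS4epi-/- mice than in both control mice and 1 was higher, against 24.2% lower and 18.3% higher among all genes tested, and the median log2 fold change was -0.23. Prc1, the midzone crosslinker, stood at 642, 656, 419 and 454 CPM, and Cks2 at 1140, 1279, 814 and 912 CPM. Without the 16 cells with late granular counts 3 genes of the list fell by the same edgeR test, beside 34 of all 9860 genes. They were Prc1 (-0.52), Arl6ip1 (-0.44) and Cks2 (-0.43). The G1 cyclin gene Ccnd2 rose (0.83) in that test, beside 95 of the 9860 genes. The 6 rule genes chose the cells, so their levels are given as a description only, as for Mki67 (563, 570, 561 and 569 CPM) and Ccna2 (586, 609, 449 and 472 CPM). Of 47 S phase genes, 16 were higher and 2 lower in both CerS4epi-/- mice, with a median of 0.15. Prc1, Cks2 and Arl6ip1 were chosen after their values were seen.

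As a balance of the programs, the log2 ratio of summed G2 and mitosis counts to summed S phase counts was 2.44, 2.66, 2.02 and 2.34. The means were 2.55 ± 0.154 in control and 2.18 ± 0.232 in CerS4epi-/- mice (SD, n = 2 each), a difference of -0.375 with p = 0.33 in a two-sided exact permutation test, again the smallest possible. Depth moved with this result, as the cycling cells of the CerS4epi-/- mice had medians of 6088 and 5224 counts against 5128 and 4791. In cells thinned to 1200 counts with a sum of at least 2 the difference was -0.246 (p = 0.667 in the exact permutation test), and in cells thinned to 2000 counts it was -0.342.

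Calls in lists outside the cell cycle are given beside the 12 calls among all 9921 genes tested (0.121%). Of 13 follicle genes tested, 1 rose (Krt17) and none fell, 8 lay higher and 1 lower in both CerS4epi-/- mice (18.3% and 24.2% of all genes tested), and the median was 0.93. Krt79 stood at 48.0, 32.0, 105 and 86.0 CPM and Cst6, a cystatin of the upper follicle, at 248, 166, 420 and 335 CPM. Of 6 stress and wound genes 1 rose (Sprr1a), beside 0.121% of all genes tested, and 3 lay higher and 1 lower in both CerS4epi-/- mice. Krt6a, a keratin of wounds with a close copy in Krt6b, stood at 7.28, 40.5, 104 and 165 CPM without passing the test, and rose without the 16 cells with late granular counts (2.54, adjusted p = 0.00276 in the same edgeR test), as did Krt16 (1.63). None of 14 adhesion, 12 basal identity, 16 ribosome biogenesis, 13 mitochondrially encoded, 13 Wnt, 7 YAP or 23 sphingolipid genes was called by edgeR. At an unadjusted p under 0.05 there were 6, 6, 6, 9, 1, 0 and 4 of them, beside 1088 of 9921 genes in all, and DESeq2 called 0, 3, 1, 2, 0, 0 and 0. In both CerS4epi-/- mice, 6 adhesion, 3 basal identity, 9 ribosome biogenesis, 10 mitochondrially encoded, 1 Wnt, 0 YAP and 4 sphingolipid genes were higher than in both control mice, beside 18.3% of all genes. In the same order 3, 5, 0, 0, 6, 0 and 5 were lower, beside 24.2%. The medians were 0.16, 0.20, 0.24, 0.20, -0.19, -0.08 and 0.18 on the log2 scale, against 0.0037 over all genes tested. Without the 16 cells with late granular counts, Igfbp2, Postn, Sparc (0.79), Ncl, mt-Atp8, mt-Nd5 and the Wnt list gene Dkk3 also rose, and Krt15 (-0.33) and Mt2 (-0.33) fell. In that setting 95 of 9860 genes rose and 34 fell, and of 13 follicle genes 6 rose and 1 fell, Lgr6, a stem cell receptor of the upper follicle (46.7, 56.1, 23.7 and 21.9 CPM, -1.17).

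In noncycling cells many more members of these lists passed the same test. Of 17 follicle genes 11 rose and 2 fell, and of 14 stress and wound genes 8 rose and 1 fell, beside 7.18% and 3.87% of all genes tested in noncycling cells. Leaving out the cells with follicle markers took all calls in noncycling cells from 1482 to 838. Whether a genotype difference depended on the state was tested directly, by the interaction of genotype and state with the mouse as a block. Of 13011 genes, 32 were called (0.246%), 9 with a higher and 23 with a lower difference in cycling cells (0.0692% and 0.177%), and 1053 had an unadjusted p under 0.05. Without the cells with follicle markers 4 were called, 2 of them among the 32.

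Of the 23 genes with a lower difference in cycling cells, Sprr1a is on the stress list and Cst6, Krt79, Krt17 and Plet1 are on the follicle list, 4 of its 16 genes tested (0.177% of all genes tested were lower). Sprr1a stood at 98.3, 70.5, 230 and 177 CPM in cycling and 259, 128, 1700 and 2322 CPM in noncycling cells (interaction log2 -2.17, adjusted p under 0.05 by edgeR's quasi-likelihood test, as for all genes of this comparison). Cst6 reached 640, 429, 3146 and 4355 CPM in noncycling cells (-1.96), Krt79 reached 140, 84.1, 712 and 839 CPM (-1.57) and Krt17 reached 525, 404, 2046 and 3171 CPM (-1.48). Plet1 had an interaction of -1.31. The protease inhibitor gene Cstb (-1.50) and Apoe (-1.03), a lipid carrier, went the same way. Without the cells with follicle markers none of these passed the test: Cst6 turned to 0.45, and the values were -0.80 for Sprr1a, -1.08 for Krt79, -0.13 for Krt17, -0.39 for Plet1, -0.42 for Cstb and -0.22 for Apoe. The adhesion gene Mcam, which still passed in that setting (-3.42), stood at 9.71, 15.7, 18.9 and 23.7 CPM in cycling and 1.79, 2.46, 26.8 and 27.9 CPM in noncycling cells (-2.99). Cystm1 (-4.26) was too low in cycling cells to be tested there, at 6.07, 3.91, 4.21 and 1.75 CPM, and no longer passed without the follicle-marker cells (-2.62). Its value rests on the noncycling cells and is not read as a difference between the states.

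Psrc1, Ckap2 and Smc4, of the G2 and mitosis list, were also among the 23. Psrc1, a spindle protein gene, stood at 75.9, 92.0, 98.3 and 122 CPM in cycling cells and at 6.15, 4.91, 22.8 and 24.8 CPM in noncycling cells (-1.77). Ckap2, another, stood at 355, 363, 253 and 311 CPM against 3.16, 3.57, 4.98 and 5.42 CPM (-1.03), and the condensin gene Smc4 at 1265, 1269, 981 and 1138 CPM against 89.6, 89.3, 98.5 and 110 CPM (-0.52). Trim59 stood at 154, 161, 100 and 125 CPM against 6.49, 4.68, 16.1 and 19.4 CPM (-2.20). For Ckap2, Smc4 and Trim59 the CerS4epi-/- mice were lower than control in cycling cells and higher in noncycling cells. The states were set by fixed counts of genes of this program, and the CerS4epi-/- cells were deeper. The part of that in these differences was not tested. Without the follicle-marker cells Psrc1 still passed, and Ckap2 (-1.09), Smc4 (-0.59) and Trim59 (-1.72) did not. Smc4 (chr3:68911944-68941960, plus strand) and Trim59 (chr3:68942621-68952332, minus strand) are neighbours whose ends face each other, and reads shared between them were not tested.

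The 9 genes with a higher difference in cycling cells included Adamts1 (1.26), Igfbp3 (1.04), the cyclin gene Ccnd2 (0.98), Sparc (0.76) and Smoc2 (0.76). Igfbp3, which binds insulin-like growth factors, stood at 165, 122, 64.7 and 30.7 CPM in cycling and 420, 363, 75.3 and 48.5 CPM in noncycling cells, so that the deficit of the CerS4epi-/- mice was smaller among cycling cells. Smoc2 stood at 172, 168, 208 and 172 CPM in cycling and at 219, 201, 137 and 132 CPM in noncycling cells. Ly6c1 (0.83) and Serpina3b (2.497) completed those with the largest values, and Serpina3b rested on 83.9 CPM in noncycling cells of control 1 against 15.5, 10.8 and 6.97 CPM in the other mice. None of these 7 genes passed without the follicle-marker cells, where Serpina3b was at 1.37, Smoc2 at 0.47 and the others between 0.60 and 1.25.

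**Figure D5:**
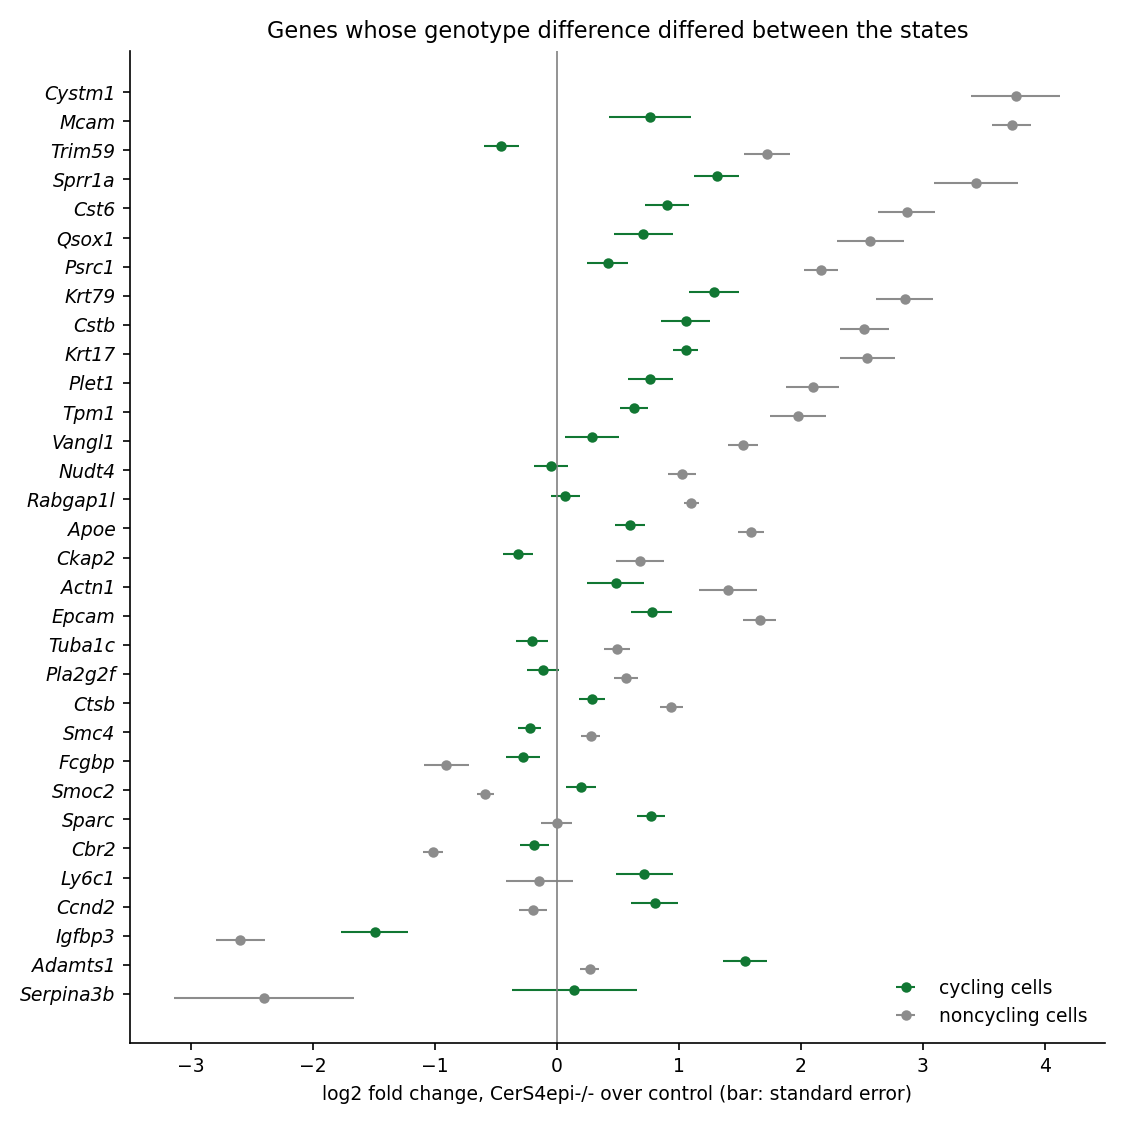
Log2 fold change, CerS4epi-/- over control, in cycling (green) and noncycling cells (grey) for the 32 genes called by the interaction of genotype and state; bars are standard errors of the edgeR fits and Cystm1 was not tested in cycling cells. Genes at the top have the higher difference in cycling cells, as Serpina3b (2.497), and genes at the bottom the lower one, as Mcam (-2.99).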

How the data were processed

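The authors deposited estimated counts of UMIs for every gene of every barcode, made with fastp 0.23.2 and STAR 2.7.10a (versions per the labels) on GRCm39. Reads mapping to several genes were divided among them, so 4.55 to 4.81% of entries are not whole, and no normalization was applied. Cells needed 1200 counts or more and a mitochondrial share of no more than 20%, which left 8480, 9086, 9017 and 7567 cells. The mitochondrial limit removed 68, 91, 363 and 316 barcodes, more in the CerS4epi-/- libraries. Doublets were not called. Counts were rounded, summed over the cells of a state in each mouse and tested with edgeR 4.0.16 (quasi-likelihood, TMM, filterByExpr), with DESeq2 1.42.0 as an alternative, under R 4.3.3. The mouse was the replicate (2 per genotype). CPM is a share of the summed counts, and log2 ratios between states carry a prior of 0.5 counts; genes with a mean of at least 5 CPM counted as detected. Python 3.11.15, numpy 2.4.6, pandas 2.3.3 and scipy 1.17.1 were used, and positions came from Gencode vM39. Fits were tested on simulated data.

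Cells, members and gene lists were chosen with earlier results of these data known. Named were the 6 rule genes, Krt5, Krt14 and Cers4, the 10 largest rises and falls past the threshold in cycling cells, the 5 largest of the interaction in each direction, up to 4 genes of each list with the largest ratio between states, and the 15 highest and 15 lowest genes outside the lists with at least 20 CPM in every mouse. Any other gene was named after its values were seen, and some genes that the rule takes are not reported here. The sums of cycling cells held 1140071 to 1901597 counts per mouse. Small differences in low genes could go undetected, and the share of changes found in the simulated data is not reported here. Same-numbered mice of the genotypes did not deviate together (correlation -0.203 in cycling and 0.0174 in noncycling cells, 2 pairs), so the numbers were not taken as pairs.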

Additional observations from a re-analysis of the deposited data

Results flagged for a closer look

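Among 58 sets of 4 mice, 4 held 1 mouse far from the other mice by Dixon's criterion, where chance gives about 1 in 20 sets. All 4 were CerS4epi-/- 1. Its median log2 ratio of histone genes between cycling and noncycling cells was 2.27, and that of mitochondrially encoded genes was -0.11. Its log2 ratios of Aspm and Kif15, both mitotic genes, were 7.64 and 6.97.

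The genotype difference of 32 genes differed between cycling and noncycling cells by the interaction test. It was lower in cycling cells for Cystm1 (-4.26 on the log2 scale), Mcam (-2.99), Trim59 (-2.20), Sprr1a (-2.17), Cst6 (-1.96), Qsox1 (-1.80), Psrc1 (-1.77), Krt79 (-1.57), Cstb (-1.50), Krt17 (-1.48), Plet1 (-1.31), Tpm1 (-1.31), Vangl1 (-1.26), Nudt4 (-1.09), Rabgap1l (-1.05), Apoe (-1.03), Ckap2 (-1.03), Actn1 (-0.94), Epcam (-0.91), Tuba1c (-0.72), Pla2g2f (-0.70), Ctsb (-0.66) and Smc4 (-0.52). It was higher in cycling cells for Serpina3b (2.497), Adamts1 (1.26), Igfbp3 (1.04), Ccnd2 (0.98), Ly6c1 (0.83), Cbr2 (0.81), Sparc (0.76), Smoc2 (0.76) and Fcgbp (0.61). Cystm1 was too low in cycling cells to be tested there, so its value rests on the noncycling cells.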

How the results depend on the processing

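The share of cycling cells and the balance of G2 and mitosis to S phase kept their sign under every alternative run. Leaving out a mouse gave differences of -1.97 to -1.08 percentage points in the share and -0.538 to -0.211 in the balance. Counts of called genes were far less stable. In cycling cells (12 genes) DESeq2 called 45, no filter on low counts 419, at most 10% mitochondrial counts 6, a sum of at least 3 or 6 gave 36 or 5, and leaving out the 5% deepest cells 108. Leaving out a mouse gave 0 to 502, in fits that leave 1 mouse in a genotype, assumed to vary like the other genotype. The interaction (32 genes) gave 257, 15, 53, 16 and 64 with no filter, at most 10% mitochondrial counts, a sum of at least 3, of at least 6 and without the deepest cells, and 36 to 130 with a mouse left out. Noncycling cells (1482 genes) gave 2836 with no filter and 516 to 1487 with a mouse left out, the lowest without CerS4epi-/- 2. After seeing the data, 2 alternatives were added. Without cells with follicle markers the counts were 3, 838 and 4 in cycling cells, noncycling cells and the interaction, and without cells with late granular counts 129 in cycling cells and 196 in the interaction. Without the follicle cells Klk10 turned to -0.15 in cycling cells, and the interaction turned to 0.45 for Cst6, 0.051 for Ctsb, 0.11 for Pla2g2f and 0.059 for Tpm1. The cause of these changes was not tested.

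With the replicate block, the difference in share was -1.28 and -1.77 percentage points within the numbers and that in the balance -0.429 and -0.320. The block called 34 genes in cycling cells, 1910 in noncycling cells and 54 in the interaction. The crossed pairing, also added after seeing the data, called 353 in cycling cells and 298 in the interaction.

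The median log2 ratio of the G2 and mitosis list (6.24) was 6.48 against noncycling cells weighted to the depth of the cycling cells, 6.47 with at most 10% mitochondrial counts and 6.25 to 6.45 with a mouse left out. With at most 10% mitochondrial counts the log2 ratio of shares was 2.32 between the lowest and the 1 to 5% bin of Krt1 plus Krt10 and -1.31 for Krt79 cells. With a sum of at least 6 it was -1.38 for Krt79 cells. After thinning to 1200 counts a mean ratio for follicle markers could not be computed, since control 2 had no cycling bulge-marker cell and control 1 and CerS4epi-/- 1 no cycling Krt79 cell; the bulge-marker share was then lower than that of cells with neither set in control 2 and CerS4epi-/- 1. Of the values of single genes under the alternatives, 152 in cycling cells kept direction and side of the threshold and 50 no longer passed it. In the interaction 447 kept both and 93 no longer passed.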

Other observations

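In the cycling cells 1 growth factor gene differed widely between mice of the same genotype. Btc, betacellulin, stood at 136, 6.52, 6.84 and 239 CPM in the 4 mice, high in the mice whose cycling cells included those with many late granular counts. Myc stood at 99.6, 92.0, 91.5 and 124 CPM in cycling and at 230, 238, 183 and 242 CPM in noncycling cells, lower in cycling cells of each mouse (log2 ratio -1.13 ± 0.19, SD, n = 4). The matricellular gene Ccn1, a target of YAP, was higher in cycling cells, at 508, 404, 397 and 412 CPM against 320, 285, 210 and 221 CPM. Wnt10b, a ligand of the basal layer, stood at 38.9, 35.2, 33.1 and 23.7 CPM against 24.0, 22.2, 12.7 and 10.99 CPM.

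Genes that respond to tissue dissociation hardly separated the states, with a median log2 ratio of -0.15 over 17 genes. Hspa8, a chaperone gene, was higher in cycling cells of each mouse (0.51 ± 0.04), and Hspa1a, a heat shock gene, was lower (-0.73 ± 0.26). Lck, a kinase gene known from T cells, stood at 6.68, 4.57, 5.26 and 10.5 CPM in cycling and 0.427, 0.396, 0.572 and 0.542 CPM in noncycling cells, while Cd2, Nkg7 and Gzmb had no count in cycling cells.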
